A study of Homo sapiens with 4 samples.

Results

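Blood coagulation and its brakes were followed through 10 genes in A549, a widely used human cell line from a lung adenocarcinoma. The genes were TFPI, TFPI2, F3, THBD, PLAT, PLAU, PLAUR, SERPINE2, FGB and FGG. They were taken by gene symbol from the annotation of the array, with the probe set of the highest mean standing for a gene that has several. All 10 had a probe set, 1 each, among 17687 named genes on the array. TFPI was selected on its measured difference between the 2 groups of arrays described here, and the other 9 were picked around it by function with results of these arrays known. The differences of the 10 genes are therefore given as a description, with no test of their own.

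All 4 arrays came from A549 cells that carried a short hairpin RNA against LDOC1 (shLDOC1) and were grown in puromycin. LDOC1 encodes a small leucine zipper protein. In 2 of them, A549-shLDOC1-H2BK120R, the cells also carried H2BK120R, a mutant histone H2B with an arginine in place of the lysine that takes up monoubiquitin. The other 2, A549-shLDOC1-V, were vector controls of that line. The submitters' design text states that depletion of LDOC1 raised monoubiquitylated H2B and that the mutant histone lowered it. Neither group had an added unmutated H2B or an intact LDOC1, so an effect of the mutation cannot be told apart from that of expressing extra histone. The promoter driving the construct, and whether the lines were clones or pools, are not stated in the labels. Since the labels name no separate cultures for the replicates, the errors cover the array-to-array spread alone, and that spread may be technical.

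Coagulation starts when tissue factor, the membrane protein encoded by F3, binds factor VII and activates factor X. TFPI, the tissue factor pathway inhibitor, blocks that complex through its Kunitz domains, and thrombomodulin (THBD) redirects thrombin to activate protein C. Thrombin turns fibrinogen, made of the chains encoded by FGA, FGB and FGG, into fibrin. Fibrin is dissolved by plasmin, which tissue-type (PLAT) and urokinase-type (PLAU) plasminogen activators release from plasminogen. The urokinase receptor (PLAUR) holds the urokinase-type enzyme at the cell surface, and the serpin SERPINE2 (protease nexin-1) inhibits thrombin and plasminogen activators. In tumour cells, tissue factor and the urokinase system are known for their part in clotting around tumours and in invasion.

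In 5 of the 10 genes both arrays of one group lay on the same side of both arrays of the other, as they did in 36.5% of all probe sets. The promoter sequences of these genes are shown because their differences are the ones set side by side below. They were TFPI, TFPI2, F3 and FGB, which were higher with H2BK120R, and PLAU, which was lower. Each sequence is that of RefSeq on GRCh38.p14, from 250 bases before to 50 bases after the annotated start, and reads 5′ to 3′ along the gene. Capitals mark matches to 4 short motifs on either strand. The TATA box was searched as TATAAA and the GC box as GGGCGG. The site of the AP-1 transcription factors was searched as TGANTCA, and the CCAAT box by the letters of its name. PLAU has 2 annotated starts, both shown. FGB has 2 overlapping entries, of which the upstream one is shown.
TFPI, chr2:187554386-187554685, minus strand: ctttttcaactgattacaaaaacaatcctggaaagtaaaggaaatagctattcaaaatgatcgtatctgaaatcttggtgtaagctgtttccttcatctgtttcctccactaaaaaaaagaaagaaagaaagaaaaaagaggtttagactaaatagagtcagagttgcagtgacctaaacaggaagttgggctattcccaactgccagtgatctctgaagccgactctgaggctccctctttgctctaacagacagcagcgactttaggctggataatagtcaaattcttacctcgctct
TFPI2, chr7:93890704-93891003, minus strand: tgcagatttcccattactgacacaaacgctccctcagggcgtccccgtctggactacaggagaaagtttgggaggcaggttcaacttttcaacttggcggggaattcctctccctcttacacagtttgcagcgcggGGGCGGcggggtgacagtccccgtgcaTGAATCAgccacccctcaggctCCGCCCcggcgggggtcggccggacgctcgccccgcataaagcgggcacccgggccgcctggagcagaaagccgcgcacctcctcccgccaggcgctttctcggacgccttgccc
F3, chr1:94541710-94542009, minus strand: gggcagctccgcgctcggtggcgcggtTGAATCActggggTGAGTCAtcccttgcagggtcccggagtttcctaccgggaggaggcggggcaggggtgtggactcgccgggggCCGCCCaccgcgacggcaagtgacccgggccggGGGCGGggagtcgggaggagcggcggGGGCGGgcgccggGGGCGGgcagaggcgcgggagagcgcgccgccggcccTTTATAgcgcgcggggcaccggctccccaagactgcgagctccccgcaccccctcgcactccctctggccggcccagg
FGB, chr4:154562730-154563029, plus strand: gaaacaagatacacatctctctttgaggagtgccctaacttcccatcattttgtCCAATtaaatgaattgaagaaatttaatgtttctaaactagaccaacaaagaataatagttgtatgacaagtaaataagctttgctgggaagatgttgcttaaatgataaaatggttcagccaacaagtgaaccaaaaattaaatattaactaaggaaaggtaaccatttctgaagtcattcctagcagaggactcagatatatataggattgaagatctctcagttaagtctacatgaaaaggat
PLAU, upstream start, chr10:73910360-73910659, plus strand: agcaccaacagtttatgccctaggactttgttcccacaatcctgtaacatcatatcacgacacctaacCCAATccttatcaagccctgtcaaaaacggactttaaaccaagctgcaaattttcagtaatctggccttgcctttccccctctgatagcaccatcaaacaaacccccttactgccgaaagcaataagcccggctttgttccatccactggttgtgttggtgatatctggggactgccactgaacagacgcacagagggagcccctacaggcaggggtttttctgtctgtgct
PLAU, downstream start, chr10:73910882-73911181, plus strand: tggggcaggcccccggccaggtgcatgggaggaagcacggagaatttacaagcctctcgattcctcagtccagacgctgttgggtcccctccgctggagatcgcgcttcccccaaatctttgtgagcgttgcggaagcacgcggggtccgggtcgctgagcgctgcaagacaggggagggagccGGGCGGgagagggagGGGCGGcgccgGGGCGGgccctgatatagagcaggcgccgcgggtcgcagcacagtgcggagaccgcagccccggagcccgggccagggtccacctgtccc

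The promoters of the genes that were higher did not share a base composition. The TFPI promoter had a GC content of 39.3% and 4 CpG dinucleotides, and the FGB promoter 32.7% and 0. Those of TFPI2 and F3 had 65.3% and 77.3%, with 26 and 38 CpG dinucleotides. Over all 35116 promoter entries of the table the median was 58.7%, with 14 CpG dinucleotides. The PLAU promoter held 48.7% at the upstream start and 70.0% at the downstream one.

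None of the 4 motifs was found in the TFPI window. The TFPI2 window held an AP-1 match at -87 (TGAATCA) and 2 GC boxes, and the F3 window held AP-1 matches at -223 (TGAATCA) and -210 (TGAGTCA), 4 GC boxes and a TATA box on the reverse strand at -28. Positions are those of the first base of a match, counted back from the start. The downstream PLAU window held 3 GC boxes, and the FGB and upstream PLAU windows 1 CCAAT box each. No base was shared between matches of different motifs in these windows. Of all promoter entries, 45.0% held a GC box, 34.6% a CCAAT box, 11.5% a TATA box and 7.71% an AP-1 match. Among the other genes, PLAUR had an AP-1 match at -186 (TGAGTCA) and FGG a CCAAT match at -17. The 2 SERPINE2 windows had 7 and 0 CCAAT matches, and 1 and 2 GC boxes. Promoter entries were kept for 8 of the 10 genes, and none was found for THBD. Entries on chromosome 8, which carries PLAT, had been left out, so the PLAT promoter was not examined.

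The deposited values are log2 levels, 1 per probe set and array, over 21448 probe sets, with array medians between 6.40 and 6.43. Pearson correlations between arrays ran from 0.990 to 0.994 over the 6 pairs. Each pair with vector replicate 1 was lower than every pair without it. The vector arrays correlated at 0.991 with each other, and vector replicate 2 at 0.993 with each H2BK120R array. The vector pair was thus less alike than vector replicate 2 and either array with the mutant. Of 10 markers listed for the A549 epithelium, 6 had a mean at or above the median probe set of 6.41. They included the keratin genes KRT8, at 17.13 and 17.20 with H2BK120R and 17.11 and 17.15 with vector, and KRT18, at 15.07 and 15.20 with H2BK120R and 14.92 and 14.96 with vector. They also included KRT19, between 6.31 and 7.10 over the 4 arrays, ALDH1A1, AKR1B10 and the cadherin gene CDH1, which read 11.24 and 11.20 with H2BK120R and 10.55 and 10.69 with vector. The epithelial gene EPCAM, between 5.16 and 5.76, and the alveolar genes NAPSA, SFTPB and NKX2-1 had means below the median probe set. In the body, endothelium is a source of TFPI, THBD and PLAT, and the liver of fibrinogen. Of 10 endothelial markers 0 had a mean at or above the median probe set, and of 9 measured hepatocyte markers 1 did (APOH). The mean level of the endothelial list was 4.45 and 4.51 on the H2BK120R arrays and 4.39 on each vector array, and that of the hepatocyte list was 4.14 and 4.08 on the H2BK120R arrays and 4.41 and 4.27 on the vector arrays. The part of other cell types in the differences below was not tested. The platelet, leukocyte and fibroblast lists had 0 of 8, 1 of 7 and 1 of 7 measured markers at or above the median, and mean levels between 4.46 and 5.50 over the arrays. In bulk RNA, fewer cells of a type and less RNA per cell cannot be told apart.

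Between the groups, a limma fit over all 21448 probe sets with Benjamini-Hochberg adjustment called 0 at an adjusted p of 0.05, a background of 0%, with 0.492 as the lowest adjusted p in the table. No gene named here passed that test. The unadjusted threshold of 0.05 was met by 1437 probe sets, a background of 6.70%.

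TFPI, the inhibitor of the tissue factor complex, read 13.76 and 13.92 on the H2BK120R arrays and 13.18 and 13.38 on the vector arrays. Both arrays with the mutant were above both vector arrays, and the smallest gap between arrays of different groups was 0.38 against gaps of 0.16 within the mutant pair and 0.20 within the vector pair. The group means were 13.84 ± 0.11 with H2BK120R and 13.28 ± 0.14 with vector (SD, n = 2 each). The difference of 0.56 ± 0.13 (limma standard error) on the log2 scale equals 1.47-fold, if the base of the logarithm is 2. With any 1 array left out it was between 0.46 and 0.66. A difference at least as high was read for 3.59% of all probe sets and for 2.35% of those with a mean at or above the median.

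**Figure D1:**
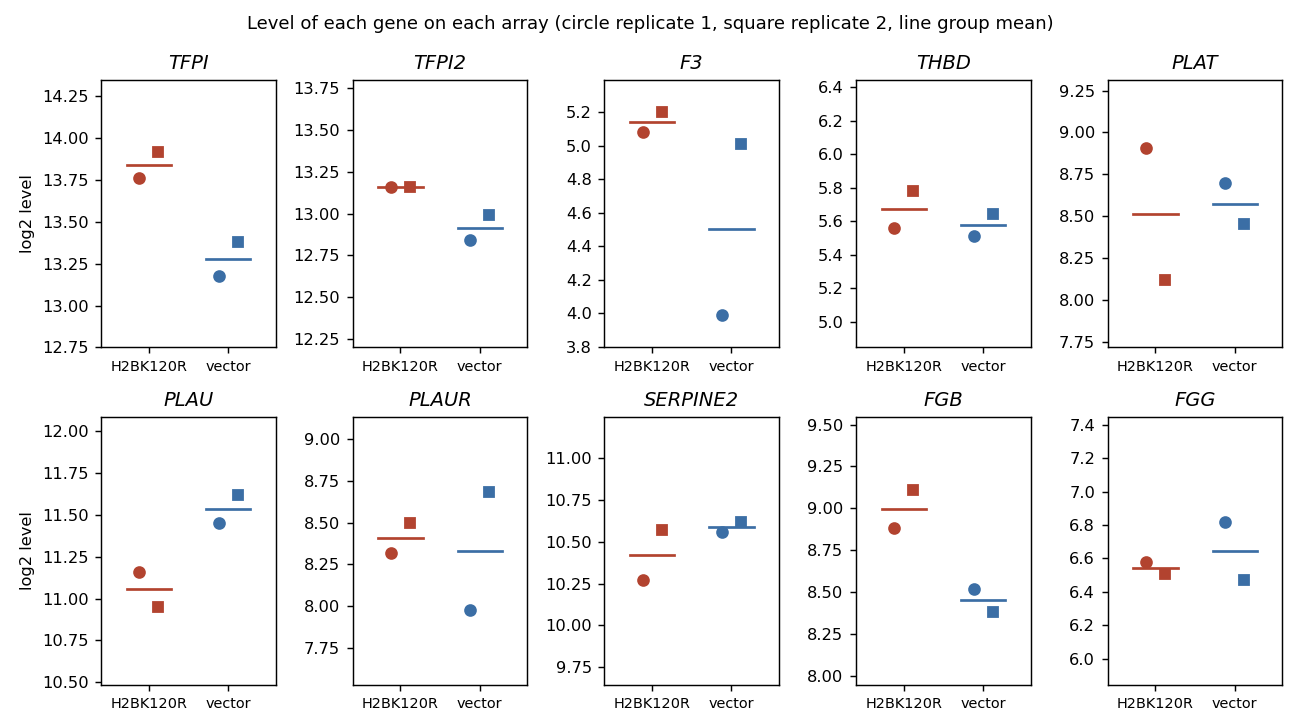
Log2 level (vertical axis, the same span of 1.6 in every panel) of each of the 10 genes on the H2BK120R arrays and the vector arrays. Circles are replicate 1, squares replicate 2 and lines group means. TFPI, TFPI2, F3 and FGB have both H2BK120R arrays above both vector arrays, PLAU has them below, and the other 5 overlap.

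Of the inhibitors TFPI2 and THBD, the first had separate groups and the second did not. TFPI2, a Kunitz inhibitor of plasmin and other proteases that is related to TFPI, read 13.16 on both H2BK120R arrays, against 12.84 and 12.99 on the vector arrays. Its arrays did not overlap between groups, and the difference was 0.25 ± 0.12, or 1.19-fold. THBD, the gene of thrombomodulin, read 5.56 and 5.78 with H2BK120R and 5.51 and 5.64 with vector. The groups overlapped for THBD, the difference of 0.10 ± 0.29 was within the gap of 0.22 between the mutant arrays, and without H2BK120R replicate 2 it was -0.02. The THBD probe set had a mean below the median of all probe sets.

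F3, the gene of tissue factor, read 5.08 and 5.20 with H2BK120R, against 3.99 and 5.01 with vector. The groups did not overlap, but the nearest arrays of different groups were 0.07 apart, and the vector arrays 1.02 apart. The difference of 0.64 ± 0.37 rested on vector replicate 1: it was 0.13 without that array and 1.15 without vector replicate 2. The mean of the F3 probe set was below the median probe set. Whether the differences of F3 and TFPI differ was not tested.

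The fibrinogen genes were read separately for each chain. FGB, the beta chain, read 8.88 and 9.11 with H2BK120R and 8.52 and 8.38 with vector. All arrays with the mutant were higher, by a difference of 0.55 ± 0.21, or 1.46-fold, which stayed between 0.43 and 0.66 with any 1 array left out. FGG, the gamma chain, read 6.58 and 6.51 with H2BK120R and 6.82 and 6.47 with vector. Its groups overlapped, and its difference of -0.10 ± 0.27 was 0.08 without vector replicate 1. FGA, the alpha chain, is not 1 of the 10 genes and lies between FGB and FGG on the RefSeq reference, with no other gene starting between them. FGA read 11.39 and 11.64 with H2BK120R, against 11.22 on both vector arrays, a difference of 0.30 ± 0.15 with a limma adjusted p of 0.761. Both mutant arrays were above both vector arrays for FGB and FGA. They were so for 18.6% of all probe sets, and for 2357 of the 10724 at or above the median level. The difference between the chains was not tested.

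The urokinase-type activator was lower with H2BK120R. PLAU read 11.16 and 10.95 with the mutant, against 11.45 and 11.62 with vector. Both arrays with H2BK120R were below both vector arrays, with a smallest gap between groups of 0.29, against gaps of 0.21 and 0.17 within the H2BK120R and vector pairs. The difference was -0.48 ± 0.15, or 28.3% lower, and ranged from -0.59 to -0.38 with 1 array left out. A difference at least as low was read for 6.75% of all probe sets and for 3.11% of those at or above the median level.

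The receptor of urokinase and the other 2 fibrinolytic genes overlapped between the groups. PLAUR read 8.32 and 8.50 with H2BK120R and 7.98 and 8.68 with vector, so that the mutant arrays lay between the vector arrays. Its difference of 0.08 ± 0.26 turned to -0.27 when vector replicate 1 was left out and to -0.01 when H2BK120R replicate 2 was. PLAT, the tissue-type activator, read 8.91 and 8.12 with H2BK120R and 8.70 and 8.45 with vector. Here the vector arrays lay between the mutant arrays, and the difference of -0.06 ± 0.27 turned to 0.34 when H2BK120R replicate 2 was left out and to 0.07 when vector replicate 1 was. SERPINE2 read 10.27 and 10.57 with H2BK120R and 10.56 and 10.62 with vector. For SERPINE2 the ranges of the groups overlapped by 0.01, and the difference of -0.17 ± 0.17 was -0.02 without H2BK120R replicate 1.

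**Figure D2:**
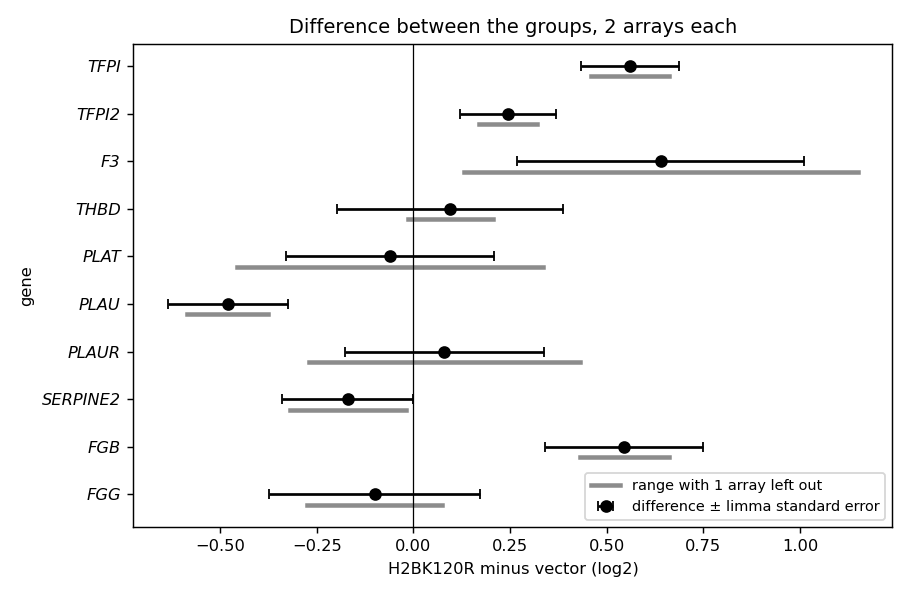
Difference between the groups (H2BK120R minus vector, log2, horizontal axis) for each of the 10 genes. Points and bars are the difference and its limma standard error from 2 arrays a group, and grey bars are the range with 1 array left out. The grey bars of THBD, PLAT, PLAUR and FGG cross 0, and that of F3 runs from 0.13 to 1.15.

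Set against TFPI, the other 9 genes were split in sign. Of these, 5 were higher with H2BK120R and 4 lower, with a median difference of 0.08, where 49.9% of all probe sets were higher, 49.4% were lower and the median was 0. Both arrays of the mutant lay above both vector arrays for 3 of the 9 (TFPI2, F3 and FGB) and below them for 1 (PLAU), against backgrounds of 18.6% and 17.9%. Among the 10724 probe sets at or above the median level, they lay above for 2357 and below for 1811. For 6 of the 9 the difference was smaller than the larger of the 2 gaps between replicates. These 6 were F3, THBD, PLAT, PLAUR, SERPINE2 and FGG. The sign was kept with each array left out and under both other normalizations for TFPI, TFPI2, F3, PLAU, SERPINE2 and FGB, and changed in at least 1 of these settings for the other 4. Counts this small do not set the 9 genes apart from the background.

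**Figure D3:**
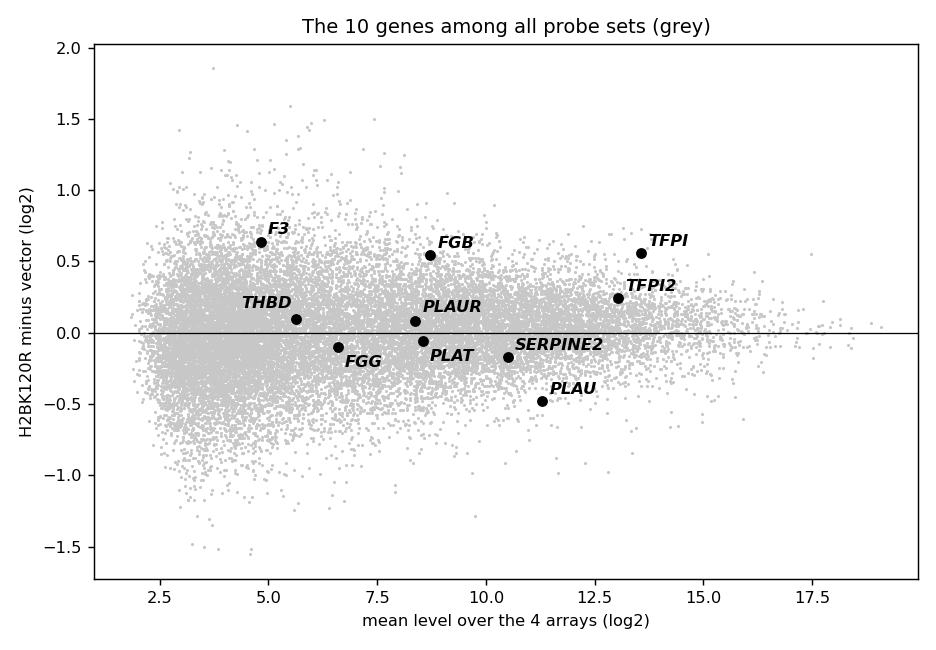
Mean level over the 4 arrays (log2, horizontal axis) against the difference H2BK120R minus vector (log2, vertical axis). Grey points are all 21448 probe sets and black points the 10 genes. TFPI at 0.56 and PLAU at -0.48 sit towards the upper and lower edges of the cloud at their level, and most of the others within it.

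Genes were also set beside TFPI by their profile over the 4 arrays. After each gene's mean was subtracted, the distance to TFPI over the 4 arrays (square root of the summed squared log2 differences) was taken for the 9297 other named genes with a mean at or above the median. FGB ranked 296th of them, at a distance of 0.25, and TFPI2 807th, at 0.34. FGA ranked 578th. PLAUR ranked 4347th, near the middle, and SERPINE2, FGG, PLAT and PLAU ranked 6560th, 7018th, 8458th and 8828th. THBD and F3 were below the median level and were not ranked. With each gene scaled to the same spread first, the order turned: TFPI2 ranked 314th, FGA 835th and FGB 866th, and PLAU 8644th.

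The 5 genes with the profile most like that of TFPI were FAM72C, IMMP2L, SHTN1, PPP1R12B and SUCO. FAM72C, at a distance of 0.04, read 12.69 and 12.83 with H2BK120R and 12.10 and 12.34 with vector. SHTN1, which encodes shootin 1, read 12.66 and 12.81 with H2BK120R and 12.11 and 12.32 with vector. IMMP2L, a subunit of the mitochondrial inner membrane peptidase, differed by 0.56 ± 0.23, PPP1R12B, a regulatory subunit of myosin phosphatase, by 0.56 ± 0.25, and SUCO by 0.52 ± 0.26. None of the 5 belongs to the coagulation lists. FAM72C has near-identical paralogs, so its probe set may read them as well. On the scaled measure, which drops the size of a difference, only SHTN1 of these 5 remained among the nearest 5. The order among so many genes over 4 arrays is a description.

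**Figure D4:**
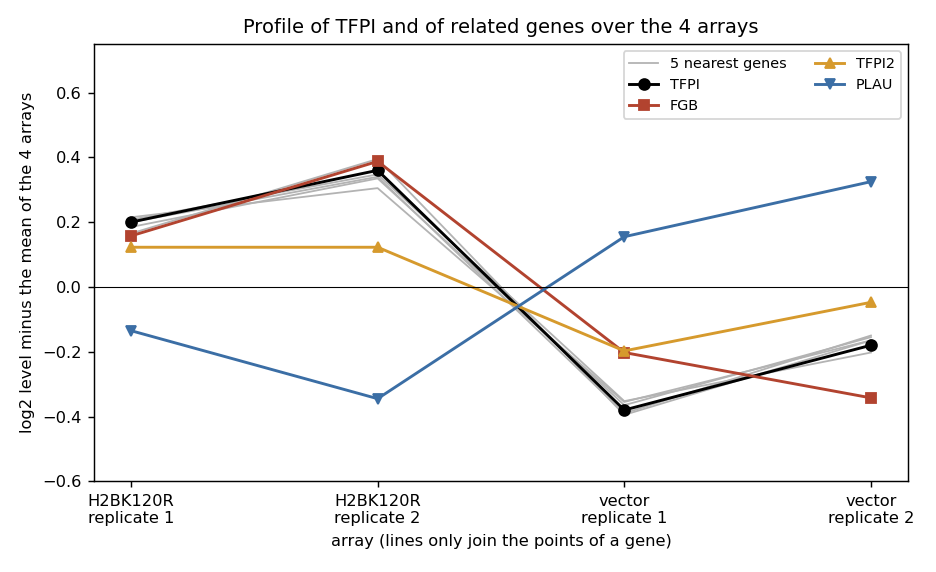
Log2 level minus the mean of the 4 arrays (vertical axis) on each array (horizontal axis) for TFPI, FGB, TFPI2, PLAU and, in grey, the 5 genes nearest to TFPI. FGB lies close to TFPI on the H2BK120R arrays and differs from it in the order of the vector arrays, TFPI2 has a smaller amplitude, and PLAU has the opposite sign on every array.

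Other genes of the same pathway were read from 8 lists by role. Of 50 further genes listed, 47 were measured. The other 3 were not analysed here. Of the 47, 24 were higher with H2BK120R and 23 lower, with a median difference of 0.01 (0 over all probe sets). Only 21 of the 47 had a mean at or above the median probe set, 11 of them higher and 10 lower. The limma fit called 0 of them at an adjusted p of 0.05, and their lowest adjusted p was 0.745. The unadjusted threshold was met by 0 genes on the higher side and 2 on the lower, against backgrounds of 3.62% and 3.08%. These 2 were HRG, histidine-rich glycoprotein of plasma, and F13B, the B subunit of factor XIII, both with means below the median probe set and named after their values were seen. F13B read 3.55 and 3.50 with H2BK120R and 5.48 and 3.78 with vector, so that its difference of -1.11 was -0.26 without vector replicate 1. HRG read 4.54 and 3.69 with H2BK120R and 5.01 and 4.88 with vector, a difference of -0.83 that was -0.41 without H2BK120R replicate 2. The groups did not overlap for 8 of the 47 genes on the higher side and for 12 on the lower side, against 18.6% and 17.9% of all probe sets.

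The other coagulation inhibitors lay on both sides of 0. Of 8 further inhibitors measured, 5 were higher and 3 lower (median 0.09). PROCR, the endothelial protein C receptor, read 11.75 and 11.67 with H2BK120R and 11.45 and 11.76 with vector, and the groups overlapped (difference 0.11 ± 0.15, limma adjusted p = 0.910). Among 12 further coagulation factors, FGA included, 8 were higher and 4 lower (median 0.03). All 3 measured protease-activated receptors, through which thrombin and related proteases signal, overlapped between groups. F2RL2 read 13.09 and 13.29 with H2BK120R and 13.29 and 13.24 with vector.

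Genes that bind or activate plasminogen, and plasminogen itself, lay on both sides of 0. Of 6 further genes of that list, 2 were higher and 4 lower (median -0.06), from -0.46 for PLGRKT to 0.48 for PLG. PLG, the gene of plasminogen, read 4.53 and 4.37 with H2BK120R and 4.24 and 3.70 with vector, separate between groups but below the median level (limma adjusted p = 0.796), and is named here after its values were seen. ANXA2, a subunit of the annexin A2 complex that docks plasminogen and its activator on cells, read 17.09 and 17.18 with H2BK120R and 17.22 and 17.25 with vector, a difference of -0.10 ± 0.09 (limma adjusted p = 0.846). The plasminogen receptor gene PLGRKT read 6.24 and 6.89 with H2BK120R and 7.37 and 6.67 with vector, overlapping between groups at -0.46 ± 0.33 (limma adjusted p = 0.815). The 3 further inhibitors of fibrinolysis were all lower and all had means below the median probe set. The one with the highest mean, SERPINF2 (alpha-2-antiplasmin), read 6.16 and 6.22 with H2BK120R and 6.43 and 6.30 with vector. Both contact system genes were below the median level, and KNG1 (kininogen) read 3.06 and 3.11 with H2BK120R and 2.82 and 2.90 with vector.

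Kunitz-domain inhibitors related to TFPI by their fold were also split. Of 7 measured, 3 were higher and 4 lower (median -0.05). SPINT2, an inhibitor of membrane serine proteases, read 10.39 and 10.41 with H2BK120R and 10.43 and 10.55 with vector, with a difference of -0.09 ± 0.16 (limma adjusted p = 0.932). In the vitamin K cycle and the export of factors V and VIII, 4 of 6 genes were higher and 2 lower. LMAN1 and MCFD2 encode the paired subunits of the cargo receptor for both factors and differed in opposite directions, by 0.11 ± 0.10 (limma adjusted p = 0.856) and -0.19 ± 0.13 (limma adjusted p = 0.801). VKORC1, the vitamin K epoxide reductase, differed by -0.15 ± 0.14 (limma adjusted p = 0.854), its paralog VKORC1L1 by 0.13 ± 0.15 (limma adjusted p = 0.890) and the quinone reductase NQO1 by 0.09 ± 0.11 (limma adjusted p = 0.891).

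**Figure D5:**
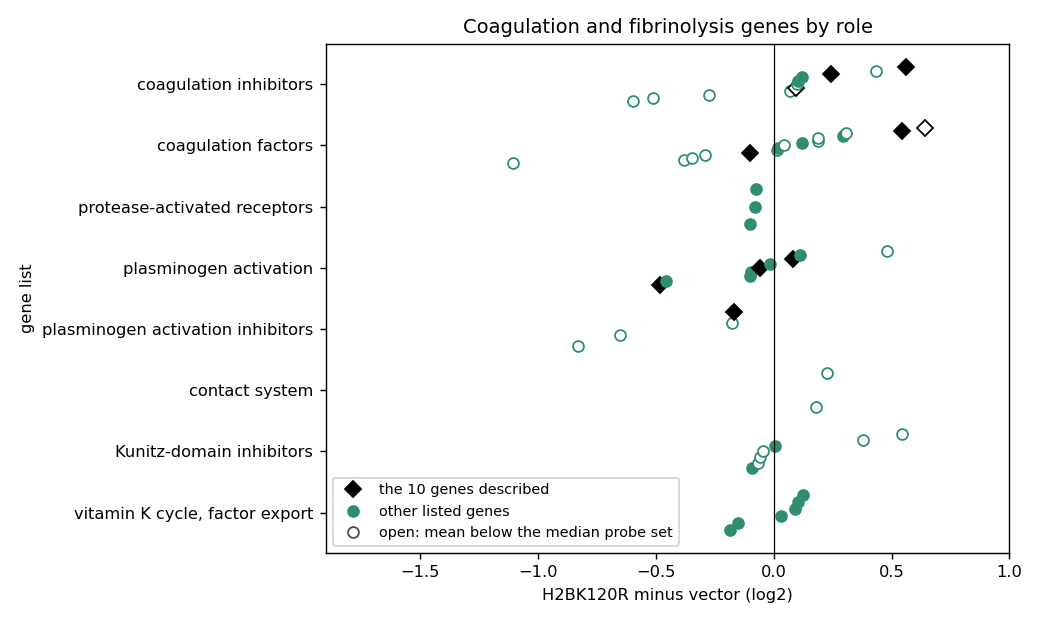
Difference H2BK120R minus vector (log2, horizontal axis) for the genes of 8 lists (vertical axis). Diamonds are the 10 genes described and circles the 47 other listed genes, and open symbols have a mean below the median probe set. Points lie on both sides of 0 in most lists, and the differences beyond -0.5 are all of open symbols.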

How the data were processed

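Total RNA of 4 A549 samples was labelled with biotin for a whole-transcript array. The titles give groups and replicate numbers. The authors deposited log2 levels; base 2 is inferred from their range, 1.56 to 19.15, and normalization between arrays from the near-equal medians. The submitters' processing notes name MAS5 without a version; no label states the background correction, the probe summary or any detection call. Probe sets were named through GEO's platform annotation: 17709 had 1 symbol, 0 several and 3739 none, and all 17709 gene IDs matched RefSeq for GRCh38.p14.

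The values were used as deposited. A limma fit (version 3.58.1, R 4.3.3) over the whole table gave H2BK120R minus vector, with no covariate, two-sided, and with variances moderated along a mean-variance trend (2 residual and 8.95 prior degrees of freedom). Adjusted p-values are Benjamini-Hochberg values over all 21448 probe sets. Standard errors are limma's. The test was checked on simulated data. Members, gene lists and tests were chosen with earlier results of these data known. The named pathway genes were, at or above the median level, up to 4 with the smallest p in each direction, and the gene with the highest mean of each list; the genes like TFPI were the 5 nearest. The alternatives tried were each array left out, quantile normalization or equal array medians, a filter on the dimmest 25% or 50%, probe sets with 1 symbol only, the dimmest probe set of a gene, a variance model with no trend or a robust one, and a replicate block. Figures used Python 3.11.15 and matplotlib 3.10.9. For arrays, their number limits the precision: with 2 against 2, the lowest two-sided p of an exact permutation test is 0.333.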

Additional observations from a re-analysis of the deposited data

How the results depend on the processing

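The TFPI difference of 0.56 was between 0.46 and 0.66 with each array left out. The median of the other 9 genes, 0.08, ranged from -0.01 (without H2BK120R replicate 2) to 0.17, and the cause was not tested. Over the table, 0 probe sets passed an adjusted p in limma under any setting. At an unadjusted p of 0.05 in limma, 1437 of 21448 passed as reported. With the dimmest 50% left out 903 of 10724 passed, a smaller number but a larger share. With 1 array left out this number rose without vector replicate 2 and fell without any other array. Of the 47 other pathway genes 0 passed the adjusted p under any setting, and between 0 and 5 the unadjusted one. Where 1 array of a group remained, its spread was taken from the other group. The replicate numbers share only a name: with them as a block 0 probe sets passed and 1846 were at an unadjusted p of 0.05, and the deviations of same-numbered arrays correlated at 0.14 over probe sets. Each of the 10 genes has 1 probe set, so the choice of probe set could not be varied for them, and a pseudocount does not apply to log2 values. Probe sets below the median level had a median standard error of 0.31, against 0.19 above it, which limits what F3 and THBD can show.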
